A study of Mus musculus with 4 samples.

Results

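The genes described here are 10 mouse genes that encode intermediate filament proteins of the cytoplasm (Vim, Nes, Des, Krt7, Krt8, Krt18 and Krt19) and of the nuclear envelope (the lamin genes Lmna, Lmnb1 and Lmnb2). They were taken by symbol from a table of read counts for 39056 genes, and all 10 were found. The study measured polyadenylated RNA in 4 libraries from lungs of S1PR1-GFP reporter mice, which mark cells expressing the sphingosine-1-phosphate receptor S1PR1 with a green fluorescent protein. According to the labels, flow cytometry sorted cells that carried the reporter and the endothelial protein CD31 but not CD45, which marks leukocytes. The library labelled no LPS is that of reporter mice without lipopolysaccharide (LPS, a component of Gram-negative bacteria), and the other 3 libraries are labelled 8, 16 and 20 h of LPS, given into the peritoneum at 10 mg/kg. The series title names its subject as the repair of the lung's vessel barrier and the S1PR1-positive endothelial cell. The labels do not give strain, age or the number of animals behind a library, nor whether the hours count from a single injection.

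Intermediate filaments are rope-like polymers that give cells and nuclei mechanical strength. Vimentin, a type III protein, fills the cytoplasm of mesenchymal and endothelial cells, and desmin takes its place in muscle. Keratins form filaments only as pairs of a type I and a type II protein, and in simple epithelia the common pair is keratin 18 with keratin 8. Lamins line the inner nuclear membrane, where A-type lamins from Lmna are most abundant in stiff, differentiated cells and B-type lamins from Lmnb1 and Lmnb2 stay anchored to the membrane by a lipid tail.

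The libraries held 27566454 to 28905776 reads. Levels are given as CPM, reads per 1000000 of a library total scaled with edgeR's TMM factors, and, where genes are compared with each other, as CPM per kb of annotated exon. A gene was called higher or lower between a pair of libraries when the scaled fold was at least 2, its exact 95% counting interval excluded 1 and the higher library reached 1 CPM. With 1 library per label, no pair of labels can be tested, the calls are statements of size, and the intervals cover counting error only. Most markers went against the sort: 12 of 15 endothelial markers stayed below 1 CPM in all libraries, Pecam1, which encodes CD31, had 7, 2, 2 and 1 reads (order: no LPS, 8, 16, 20 h), and Cdh5, which encodes VE-cadherin, had 5, 6, 6 and 9. The 15 markers together summed to 60.1 to 66.1 CPM, nearly all of it from Eng, which encodes the TGF-beta co-receptor endoglin and stood at 53.6, 54.1, 57.2 and 55.4 CPM. The only call among them was Ramp2, higher at 16 h. Each hour below therefore stands for the library with that label. The libraries labelled 8 h and 16 h lay close together and apart from the others, with 0.237% of 11803 measured genes called between them, against 8.31% between 8 h and no LPS, 8.23% between 16 h and no LPS and 0.652% between 20 h and no LPS. Measured genes are those that reached 1 CPM in at least 1 library. The comparisons of 8, 16 and 20 h against no LPS all use and so share the library labelled no LPS.

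Of the 10 genes, 9 were measured, each above 1 CPM in all 4 libraries, and Krt7 was below that level throughout. At 8 h, Krt8, Krt18 and Nes were called higher and none of the 10 was called lower, where 4.19% of measured genes were called higher. The same 3 genes were called higher at 16 h, against 4.13% of measured genes, and lower at 20 h than at 16 h, against 3.85%. No gene of the 10 was called between 20 h and no LPS or between 16 h and 8 h, where 0.652% and 0.237% of measured genes were called. The median log2 ratio of the 9 measured genes was 0.50 at 8 h, 0.57 at 16 h and 0.10 at 20 h against no LPS, beside 0.0041, 0.0055 and -0.0023 over all measured genes.

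**Figure D1:**
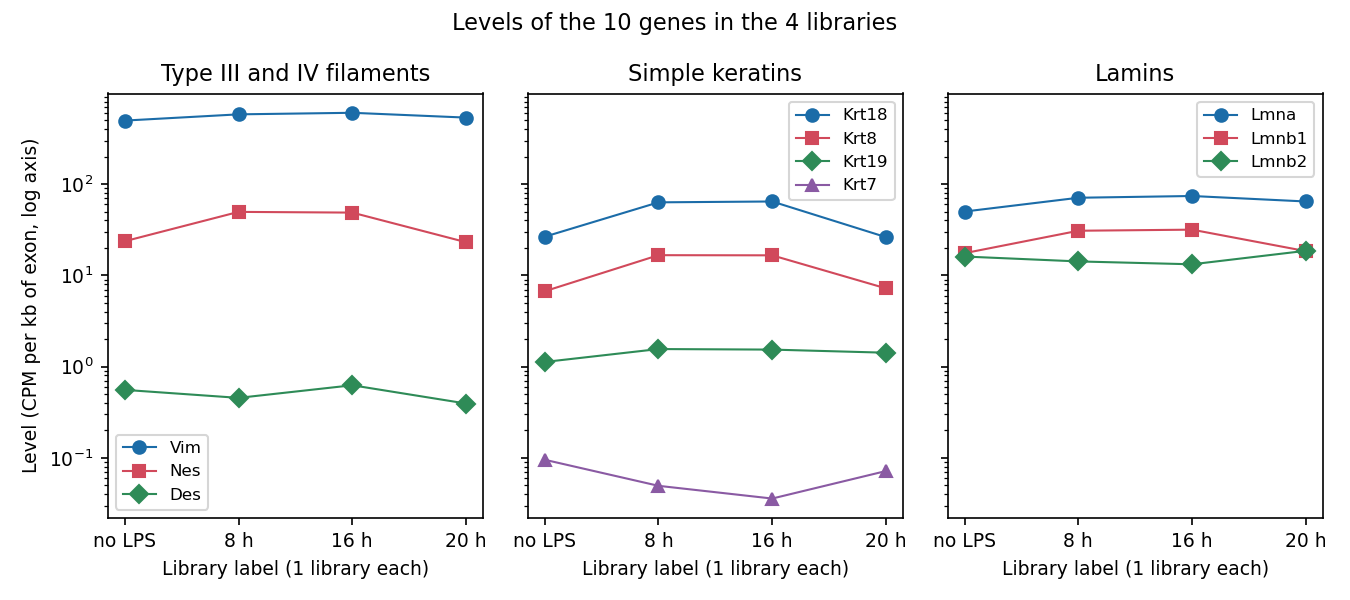
Level of each gene in CPM per kb of exon (log axis) by library label (no LPS, 8, 16 and 20 h), with 1 point per library and lines only to join points of a gene. Vim lies above all others, Krt8, Krt18, Nes and Lmnb1 are raised in the 8 h and 16 h libraries, and Lmnb2 is lowest there.

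By level per kb, the order over the mean of the 4 libraries was Vim, Lmna, Krt18, Nes, Lmnb1, Lmnb2, Krt8, Krt19, Des and Krt7. Vim stood at 497 to 605 CPM per kb, Lmna at 50.1 to 74.1, Krt18 at 26.3 to 64.5, Nes at 23.1 to 49.6, Lmnb1 at 17.5 to 31.7, Lmnb2 at 13.2 to 18.6 and Krt8 at 6.70 to 16.7. The ranges of neighbours in this order overlapped from Lmna down to Krt8, so no neighbours among these 6 were separate over their spread across libraries. Read library by library, Lmna was above Krt18, Krt18 above Nes and Nes above Lmnb1 in all 4, while Lmnb1 with Lmnb2 and Lmnb2 with Krt8 changed places. Vim above them, and Krt19 (1.13 to 1.56), Des (0.394 to 0.625) and Krt7 (0.0358 to 0.0954) below them, were each separate from the next. Exon lengths count every annotated exon of a gene, so a gene with rarely used exons is placed too low.

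Among the measured filament and lamin genes, the pair of Krt8 and Krt18 gave the largest differences. Krt8 encodes the type II keratin 8 (chromosome 15, 101996698 to 102004482, minus strand, mm10), and Krt18 the type I keratin 18 (chromosome 15, 102028180 to 102032027, plus strand), 23697 bases away. Krt8 had 371 reads without LPS, 936 at 8 h, 900 at 16 h, then 391 at 20 h, or 13.1, 32.6, 32.5 and 14.1 CPM. Krt18 had 1078, 2606, 2570 and 1045 reads, or 38.1, 90.8, 92.8 and 37.7 CPM. In both genes the 8 h and 16 h libraries were high and the other pair low. Krt8 was 2.48-fold higher at 8 h (2.20 to 2.81) and 2.47-fold at 16 h (2.19 to 2.80), and its fold at 20 h was 1.08 (0.931 to 1.24). For Krt18 the folds were 2.38 (2.22 to 2.56), 2.43 (2.26 to 2.61) and 0.989 (0.908 to 1.08). From 16 h to 20 h, Krt8 was 2.30-fold lower (2.04 to 2.60) and Krt18 2.46-fold lower (2.29 to 2.64).

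Keratin filaments need equal amounts of the type I and type II partner, and the ratio of their transcripts can be read within each library without any scaling. Per kb of exon, Krt18 exceeded Krt8 by a ratio of 3.96 without LPS (3.52 to 4.47), 3.79 at 8 h (3.52 to 4.09), 3.89 at 16 h (3.61 to 4.20), then 3.64 at 20 h (3.24 to 4.10). These intervals overlap in all 4 libraries. Relative to no LPS the ratio was 0.958 at 8 h (0.831 to 1.10), which bounds how far the folds of the partners can differ as far as counting error goes. At 16 h it was 0.983 (0.852 to 1.13) and at 20 h 0.920 (0.777 to 1.09).

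The DNA upstream of the called genes is printed because these 3 genes were high in the same libraries. The stretches, from the RefSeq promoter table for GRCm38.p6 (the build also called mm10), end before the first annotated transcript base, and capitals mark matches to the motifs named below.
Krt8 (chr15:102004483-102004592, minus strand): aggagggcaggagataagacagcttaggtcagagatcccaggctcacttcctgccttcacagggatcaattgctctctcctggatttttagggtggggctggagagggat
Krt18 (chr15:102027966-102028179, plus strand): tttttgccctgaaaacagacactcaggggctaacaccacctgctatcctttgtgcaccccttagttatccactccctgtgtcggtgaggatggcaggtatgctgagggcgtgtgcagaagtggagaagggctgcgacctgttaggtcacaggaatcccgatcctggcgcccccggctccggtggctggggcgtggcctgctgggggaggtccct
Nes (chr3:87970843-87971077, plus strand): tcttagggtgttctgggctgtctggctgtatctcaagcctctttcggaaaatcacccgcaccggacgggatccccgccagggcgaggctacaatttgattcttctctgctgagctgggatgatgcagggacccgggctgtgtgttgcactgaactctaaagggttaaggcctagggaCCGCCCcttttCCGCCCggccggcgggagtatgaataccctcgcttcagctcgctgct
The table held 8 of the 10 genes, all but Krt19 and Lmnb1. The motifs were searched on both strands in the 250 bases before each RefSeq start: the TATA box TATAAA, the CCAAT box (letters CCAAT), the GC box GGGCGG, the AP-1 motif TGANTCA, the cell cycle motif CHR (TTTGAA), the E2F motif TTTNGCGC and the ETS motif CCGGAA. No match was found in the windows of Krt8 and Krt18. Nes held the GC box 2 times on the reverse strand, as CCGCCC at bases 73 to 68 and 62 to 57 before its start. The GC box was also found in windows of Des, Krt7, Lmna and Lmnb2, which were not called. The GC box was present in 32.7% of 32851 promoter windows, the CCAAT box in 33.8%, CHR in 16%, TATAAA in 12.4%, the ETS motif in 12%, AP-1 in 6.75% and the E2F motif in 1.13%.

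The other simple keratins were scarce. Krt19, which encodes a short type I keratin of ducts and simple epithelia (chromosome 11, 100140810 to 100148665, minus strand), had 59, 83, 79 and 73 reads without LPS and at 8, 16 and 20 h. Its fold was 1.38 at 8 h (0.980 to 1.97) and 1.37 at 16 h (0.963 to 1.95), so counting error alone leaves its direction unsettled. Krt7, the type II keratin often paired with Krt19 (chromosome 15, 101411043 to 101430313, plus strand), had 19, 10, 7 and 14 reads, and its folds are not interpreted. It was not called at 16 h, although its interval of 1.07-fold to 7.49-fold lower excluded 1, because it stayed below 1 CPM. Of 54 keratin genes in the table, 34 had 0 reads in all libraries and 5 were measured: Krt8, Krt18, Krt19, Krt10 and Krt20.

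Krt20, a type I keratin of gut and urinary tract epithelium, ran opposite to Krt8 and Krt18. It stood at 8.67 CPM without LPS, 3.07 at 8 h, 3.28 at 16 h, then 8.77 at 20 h. It was 2.83-fold lower at 8 h (2.21 to 3.65) and 2.64-fold lower at 16 h (2.07 to 3.40), where 4.13% and 4.09% of measured genes were called lower. Krt10, a keratin of differentiating epidermis, had 12, 19, 31 and 27 reads and was called higher only at 16 h, at 1.12 CPM, the 1 library in which it passed the filter. None of the 23 other type II keratin genes in the table was measured. Keratin filaments need a type II partner, and among type II genes Krt8 alone reached 1 CPM in these libraries.

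Markers of epithelial cells were read beside the keratins. Epcam and Cdh1, 2 defining genes of epithelium, had 1 to 3 and 3 to 5 reads, and Cldn7, Esrp1, Sftpb and Nkx2-1 had 0 in all 4 libraries. The 16 lung epithelial markers summed to 6.44, 7.56, 8.27 and 5.67 CPM without LPS and at 8, 16 and 20 h, with 3 measured. Of these, Grhl2, an epithelial transcription factor gene, had 4, 35, 31 and 1 reads and was called higher at 8 h (8.61-fold, 3.08 to 33.4) and at 16 h (7.91-fold, 2.80 to 30.8). Elf3, another epithelial factor gene, had 19, 63, 34 and 23 reads and was called higher at 8 h only, at 3.26-fold (1.93 to 5.78). Both were below 1 CPM without LPS and at 20 h. That 2 of the 3 measured markers were called at 8 h is therefore partly fixed by the filter. Over all measured genes, 4.19% were called higher at 8 h and 4.13% at 16 h. Ager, a gene of alveolar type I cells on the same list, had 23, 5, 11 and 20 reads and was 4.67-fold lower at 8 h (1.74 to 15.7), below 1 CPM in every library and so not called. The third measured marker, Hopx, was not called. Mesothelial cells also make keratins 8, 18 and 19. Their 10 markers summed to 9.66, 17.6, 13.9 and 8.41 CPM. Of the 10, 2 were measured and none called at 8, 16 or 20 h, where 8.31%, 8.23% and 0.652% of measured genes were called. Wt1 and Calb2 of this list, named after values were seen, had 0 reads throughout, and Upk3b at most 1. Bnc1 stood at 6.76, 13.3, 10.4 and 5.78 CPM. The part of the cells behind Grhl2, Elf3, Ager or Bnc1 in the keratin differences was not tested. In bulk RNA, fewer cells of a type and less RNA per cell cannot be told apart.

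Vim was the most abundant of the 10 genes. It encodes vimentin (chromosome 2, 13573927 to 13582826, plus strand) and took 0.238% of reads without LPS, 0.274% at 8 h, 0.286% at 16 h, then 0.255% at 20 h. By mean level per kb it ranked 28 among 11803 measured genes. The 4 libraries stood at 2358, 2760, 2871 and 2543 CPM, a ratio of 1.22 between the highest and the lowest. Its folds against no LPS were 1.17 at 8 h (1.16 to 1.18), 1.22 at 16 h (1.20 to 1.23) and 1.08 at 20 h (1.07 to 1.09). None is near the fold of 2, and the narrow intervals reflect only the depth of the counts. Among the 7 cytoplasmic filament genes, Vim made up 89.4% of the summed level per kb without LPS, 81.6% at 8 h, 82.1% at 16 h, then 90.2% at 20 h.

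Fibroblasts and leukocytes also make vimentin. The 12 fibroblast markers summed to 435, 352, 361 and 428 CPM without LPS and at 8, 16 and 20 h, with 5 measured. Col3a1 and Dcn, which encode matrix proteins, were called lower at 8 h and 16 h, and Fbln1, which encodes the matrix protein fibulin 1, was called higher at 8 h. Prrx1, a mesenchymal transcription factor gene, stayed at 209 to 213 CPM. The 10 leukocyte markers summed to 92.1 to 126 CPM, lowest at 8 h and 16 h, with 6 measured. Ptprc, which encodes CD45, stood at 1.12 to 1.49 CPM. Adgre1, a macrophage receptor gene, was called higher at 8 h and 16 h and Csf1r at 16 h, and the neutrophil gene S100a8 was called lower at both. Between 16 h and 8 h, 2 of the 6 measured leukocyte markers were called, both higher at 16 h, against 0.237% of measured genes. The median level of the 10 leukocyte markers was 0.372, 0.366, 0.668 and 0.885 CPM, below the filter of 1 CPM. Over all measured genes, 4.19% and 4.13% were called higher at 8 h and 16 h, and 4.13% and 4.09% lower. The part of such cells in the level of Vim was not tested.

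Nes encodes nestin, a large type IV protein of progenitor and newly formed vessel cells that joins filaments by co-assembling with vimentin (chromosome 3, 87971078 to 87980451, plus strand). It had 4296, 9145, 8668 and 4107 reads without LPS and at 8, 16 and 20 h, or 152, 319, 313 and 148 CPM. The 8 h and 16 h libraries were again high. Nes was 2.10-fold higher at 8 h (2.02 to 2.17) and 2.06-fold higher at 16 h, where the interval of 1.98 to 2.14 reached below the fold of 2. Its fold at 20 h was 0.976 (0.935 to 1.02). Measured against its partner in the same library, Nes over Vim per kb was 0.0476 without LPS, 0.0853 at 8 h, 0.0806 at 16 h, then 0.0431 at 20 h. Relative to no LPS that ratio was 1.79 at 8 h (1.72 to 1.86), 1.69 at 16 h (1.63 to 1.76) and 0.905 at 20 h (0.866 to 0.946).

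Des, the desmin gene of muscle cells (chromosome 1, 75360329 to 75368579, plus strand), was near the lower limit of measurement. It had 59, 49, 65 and 41 reads, or 2.09, 1.71, 2.35 and 1.48 CPM, and its 3 folds against no LPS all had intervals that include 1. None of the 11 markers of skeletal and cardiac muscle was measured, and of 12 smooth muscle and pericyte markers only Notch3 was. The muscle markers summed to 0.397 to 0.650 CPM and the smooth muscle and pericyte markers to 5.09 to 8.24 CPM. Acta2, the smooth muscle actin gene, had 5 to 15 reads.

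**Figure D2:**
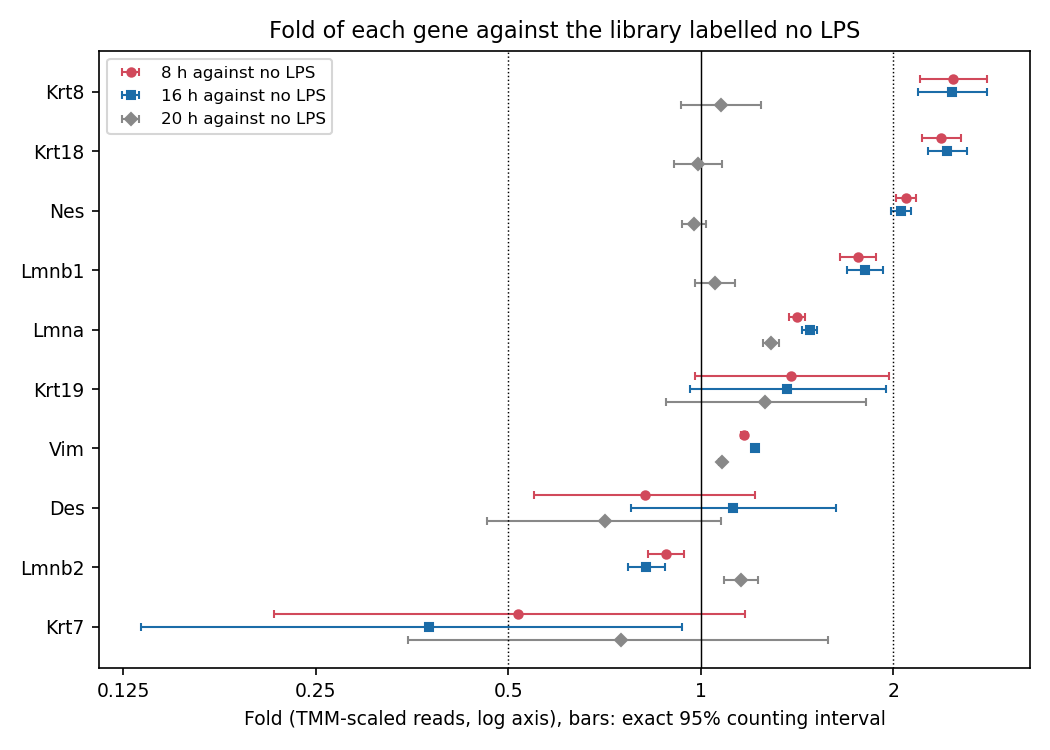
Fold of each gene at 8 h, 16 h and 20 h against the library labelled no LPS, on a log axis with base 2. Bars are exact 95% counting intervals, the solid line marks no difference and the dotted lines mark a fold of 2 in either direction; Krt8, Krt18 and Nes pass 2 at 8 h and 16 h, and Lmnb1 lies between 1.76 and 1.81.

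The lamin genes split. Lmnb1 encodes lamin B1 (chromosome 18, 56707813 to 56753424, plus strand) and had 1467 reads without LPS, 2623 at 8 h, 2602 at 16 h, then 1513 at 20 h. Those are 51.9, 91.4, 93.9 and 54.6 CPM, with the 8 h and 16 h libraries high. Its folds of 1.76 at 8 h (1.65 to 1.88) and 1.81 at 16 h (1.70 to 1.93) fell short of a call, and at 20 h the fold was 1.05 (0.979 to 1.13). At a fold threshold of 1.5 it would be called at both times, as 10.4% and 10.6% of measured genes would be called higher. Lmnb2, which encodes lamin B2 (chromosome 10, 80901203 to 80918245, minus strand), had 1949, 1750, 1571 and 2207 reads, or 69.0, 61.0, 56.7 and 79.7 CPM. For this gene the 8 h and 16 h libraries were the lowest, with folds of 0.884 (0.828 to 0.943) and 0.822 (0.769 to 0.879), and 20 h was the highest, at 1.16 (1.09 to 1.23). A correction for transcript GC content lowered the log2 ratio of Lmnb2 at 20 h from 0.21 to 0.11, below that interval. It was not called in any comparison at a fold of 2. From 16 h to 20 h, Lmnb1 was 1.72-fold lower (1.61 to 1.83) and Lmnb2 1.41-fold higher (1.32 to 1.5). At a threshold of 1.5 Lmnb1, and with it Des, would be called lower there, as 10.2% of measured genes would.

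Read within each library, the ratio of Lmnb1 to Lmnb2 showed this difference without scaling. Per kb it was 1.09 without LPS (1.02 to 1.17), 2.17 at 8 h (2.04 to 2.31), 2.40 at 16 h (2.25 to 2.55), then 0.992 at 20 h (0.929 to 1.06). The 2 B-type genes thus stood near parity in the no LPS and 20 h libraries, and Lmnb1 exceeded Lmnb2 in the 8 h and 16 h libraries. Relative to no LPS the ratio was 1.99 at 8 h (1.82 to 2.18), 2.20 at 16 h (2.0 to 2.42) and 0.911 at 20 h (0.828 to 1.0).

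Lmna encodes lamins A and C, made from the same gene by alternative splicing and not told apart in counts per gene (chromosome 3, 88480147 to 88509956, minus strand). It had 8265, 11887, 11992 and 10437 reads without LPS and at 8, 16 and 20 h, or 292, 414, 433 and 377 CPM. All 3 LPS libraries were above the no LPS library, with folds of 1.42 (1.38 to 1.46), 1.48 (1.44 to 1.52) and 1.29 (1.25 to 1.33), and none was called. The log2 ratio of Lmna at 20 h was 0.37, which the GC correction lowered to 0.29, below the counting interval. It was also lowered below the interval at 8 h, from 0.50 to 0.45, and at 16 h, from 0.57 to 0.52. Lmna made up 59.8% of the summed lamin level per kb without LPS, 61.1% at 8 h, 62.3% at 16 h, then 63.5% at 20 h. Lmnb1 made up 20.9%, 26.6%, 26.6% and 18.2%, and Lmnb2 19.2%, 12.3%, 11.1% and 18.3%.

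**Figure D3:**
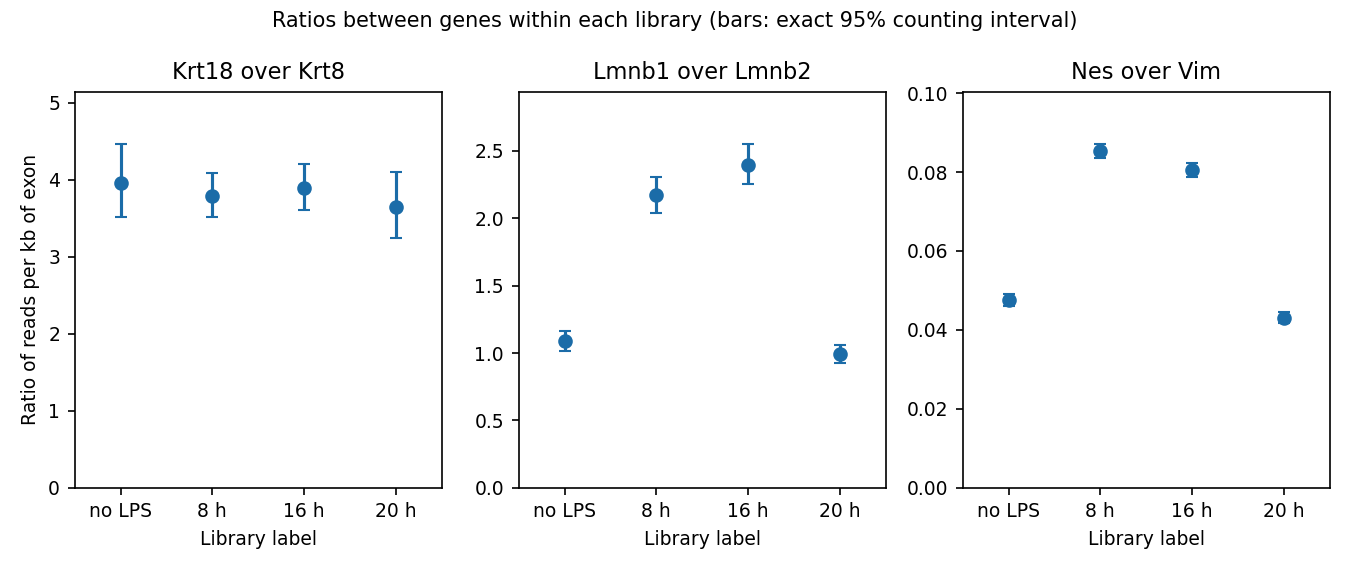
Ratios of reads per kb of exon between genes of the same library, for Krt18 over Krt8, Lmnb1 over Lmnb2 and Nes over Vim, with exact 95% counting intervals as bars and axes from 0. Krt18 over Krt8 stays between 3.64 and 3.96, Lmnb1 over Lmnb2 goes from 1.09 to 2.17, 2.40 and 0.992, and Nes over Vim is highest at 8 h and 16 h.

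Genes of mitosis were high in the same libraries as Krt8, Krt18, Nes and Lmnb1. Lamins and nestin are phosphorylated and their polymers taken apart when cells divide. A list of 20 mitotic genes, chosen with earlier results of these data known, was read beside them. The summed level of the list was 1397 CPM without LPS, 2958 at 8 h, 2967 at 16 h, then 1374 at 20 h. At 8 h 13 of the 20 were called higher, against 4.19% of measured genes, and none was lower. The median log2 ratio was 1.09. At 16 h again 13 were higher, against 4.13% of measured genes, with a median of 1.11. Mki67, the proliferation marker gene, stood at 115, 354, 354 and 117 CPM. Nusap1, a spindle gene, stood at 9.62, 33.7, 35.6 and 9.82 CPM. The part of dividing cells in the differences of the filament and lamin genes was not tested.

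Other cytoplasmic filament genes gave a mixed picture. Of 11 listed, 6 were measured, and 2 were higher, none lower and 4 not called at 8 h and at 16 h, with median log2 ratios of 0.76 and 0.66. Over all measured genes, 4.19% and 4.13% were called higher at these times. Nefm, a neurofilament subunit gene, stood at 6.51, 14.0, 15.5 and 6.82 CPM and was 2.15-fold higher at 8 h (1.80 to 2.57) and 2.38-fold at 16 h (2.0 to 2.84). Prph, which encodes peripherin, a type III protein of peripheral neurons, had 39, 90, 104 and 26 reads and was 2.27-fold higher at 8 h (1.54 to 3.40) and 2.72-fold at 16 h (1.87 to 4.04). Nefl, the partner of Nefm in neurofilaments, had folds of 1.82 (1.54 to 2.16) and 1.69 (1.42 to 2.01), and Iffo2 folds of 1.58 and 1.48. These were not called.

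Linkers tie filaments to junctions, actin and the nucleus, and chaperones and ligase adaptors control their turnover. Of 22 such genes listed, 15 were measured, with 1 higher and 1 lower at 8 h and at 16 h, and median log2 ratios of 0.10 and 0.097. Over all measured genes, 4.19% and 4.13% were called higher at 8 h and 16 h, and 4.13% and 4.09% lower. With 15 genes, 1 call in each direction is not far from those shares. Pkp3, which encodes the desmosome protein plakophilin 3, was 3.33-fold higher at 8 h (2.02 to 5.70) on 71 against 21 reads, and 3.69-fold at 16 h. It was below 1 CPM without LPS and passed the filter only through the LPS libraries. Klhl24, which encodes an adaptor that directs a keratin to degradation, stood at 62.1, 30.1, 30.1 and 61.2 CPM and was 2.06-fold lower at 8 h and at 16 h (1.90 to 2.24 in both). Plec, which encodes plectin, the main cross-linker of vimentin and keratin filaments, stood at 371, 665, 674 and 463 CPM and was not called, with folds of 1.79 (1.75 to 1.84) and 1.82 (1.77 to 1.86). Ppl, which encodes periplakin, had 91, 53, 54 and 81 reads and was not called.

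Partners of the lamina showed 1 call. Of 23 listed genes, 22 were measured, 1 was higher and 21 were not called at 8 h and at 16 h, with median log2 ratios of 0.13 and 0.12. The 1 call in 22 is near the share of all measured genes called higher, 4.19% at 8 h and 4.13% at 16 h. The called gene, Syne3, encodes nesprin 3, the nuclear membrane protein that binds plectin and through it the intermediate filaments. It stood at 49.4, 103, 105 and 47.6 CPM and was 2.08-fold higher at 8 h (1.95 to 2.22) and 2.12-fold at 16 h (1.99 to 2.26). Cbx5, which encodes the heterochromatin protein HP1 alpha, had folds of 1.52 and 1.5 without a call. The inner membrane genes Lemd2, at 0.696 and 0.685, and Lemd3, at 0.636 and 0.645, lay below 1, also without a call. Of the 7 genes that process lamins none was called, and their median log2 ratio was 0.24 at 8 h and 0.34 at 16 h. Fntb, which encodes the beta subunit of the farnesyltransferase that lipidates lamins, had folds of 1.47 and 1.53. Casp6, whose protease cleaves lamin A in apoptosis, had folds of 1.61 and 1.52, and Rce1 and Fnta had folds of 1.35 and 1.18 at 8 h. The other 3 lay below 1 at 8 h and 16 h, with intervals that exclude 1. These were Zmpste24, whose protease cuts prelamin A (0.860 and 0.900), Icmt, whose enzyme methylates the lipidated end (0.883 and 0.867), and Narf (0.894 and 0.868). At 20 h no gene of these lists was called against no LPS, where only 0.652% of all measured genes were called.

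**Figure D4:**
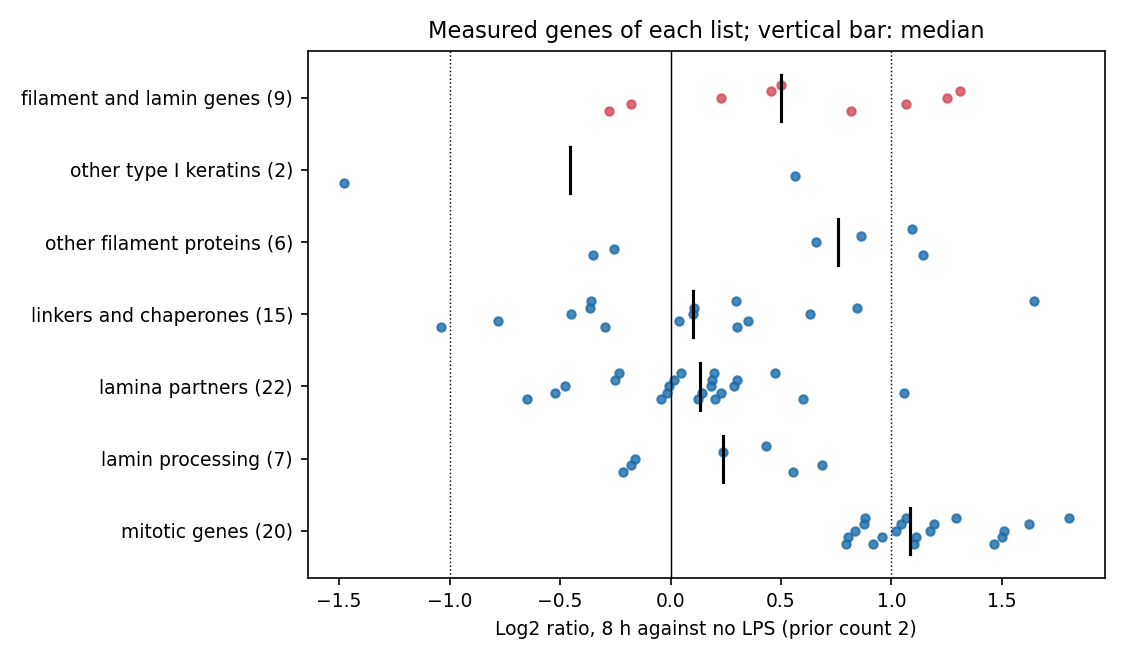
Log2 ratio of each measured gene at 8 h against no LPS, by list, with the number of measured genes in parentheses, a vertical bar at the median of each list and dotted lines at a fold of 2. The 9 filament and lamin genes have a median of 0.50, the lamina partners 0.13 and the mitotic genes 1.09.

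Krt8 varied most over the 4 libraries among the 9 measured genes, with a log2 range of 1.31. Among 8608 named protein-coding genes of at least 10 CPM on average, those with the most similar log2 ratios to no LPS were Foxm1, a transcription factor gene of dividing cells, E2f8, a repressor gene of the cell cycle, and Emilin2, which encodes a matrix glycoprotein. Their Euclidean distances over the 3 ratios, which come from 4 libraries, were 0.051, 0.055 and 0.061. Foxm1 stood at 30.6, 74.0, 74.1 and 32.4 CPM. Krt18, whose log2 range of 1.30 was nearly as wide, had other neighbours: Flt1, which encodes a VEGF receptor, Ier3, an early response gene, and Adcyap1r1, a neuropeptide receptor gene, at distances of 0.043, 0.045 and 0.046. The genes nearest to Nes were Gprc5a, Syne3 and Fam131b, at 0.035, 0.045 and 0.046. The neighbours of Krt18 and Nes were added after their names were seen. The distances take no account of counting error. For Krt8 at 8 h the counting interval of the fold ran from 2.20 to 2.81, so the order of neighbours is not settled. The differing names do not show that Krt8 and Krt18 behaved differently.

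A linear trend over the 4 hours was fitted across all measured genes with edgeR's quasi-likelihood test, which leaves 2 residual degrees of freedom. No gene of 11803 (0%) passed an adjusted p of 0.05, 43 (0.364%) had an unadjusted p below 0.05, and DESeq2 gave 25 such genes and none after adjustment. None of the 9 filament and lamin genes was among those 43. Without the 20 h library 5 of the 9 had an unadjusted p below 0.05, as did 2110 of 11716 genes, and the smallest adjusted p of the 9 in edgeR was 0.239. Without the no LPS library these counts were 2 of the 9 and 540 of 11721 genes, with a smallest adjusted p of 0.784. A straight line over all 4 hours is not the shape of genes that are high at 8 h and 16 h and back at 20 h.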

How the data were processed

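Polyadenylated RNA was measured in 4 libraries, 1 per label. The deposited file holds raw counts of reads per gene, from the authors. Per the submitters' processing notes, STAR, featureCounts and build mm10 were used. The sources used here do not give versions, annotation, strand setting or the handling of multiply mapped reads. Columns were matched to samples by title. Symbols came from GENCODE M21 (99.5% of identifiers matched).

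By BLAST+ 2.17.0, at 90% identity over 200 bases, Krt8 had a near-identical copy, Krt8-ps (0 to 2 reads). Krt18 had Gm5200, which is not among the counted genes, so its reads cannot be checked. Des, Krt7 and Krt8 overlap antisense-strand transcripts, so their counts are uncertain if strand was ignored.

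Scaling (TMM) and the trend, with Benjamini-Hochberg adjustment, used edgeR 4.0.16. DESeq2 1.42.0 was an alternative. Fold intervals are exact conditional binomial (Clopper-Pearson), ratios of ratios have Fisher's exact interval, and log2 ratios use a prior count of 2. A level of 3 reads, the limit that 0 reads allows, was 0.104 to 0.108 CPM. Without molecular identifiers, intervals cover counting error only. Interval and trend code was tested on simulated data.

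Genes named beside the 10 were, per list, the 4 measured genes with the largest absolute log2 ratio against no LPS, every called gene where 5 or fewer were called, and fixed markers. Other markers at or near 0 reads, and the ratios between genes, were chosen after values were seen. The 10 genes and the lists were chosen with earlier results of these data known. The alternatives were 3 scalings, 2 prior counts, count filters, fold thresholds, a stricter interval level, a loess correction on transcript GC content and leaving out libraries.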

Additional observations from a re-analysis of the deposited data

How the results depend on the processing

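Which of the 10 genes were called did not depend on scaling by library size, DESeq2 size factors or upper quartiles, on a minimum of 10 CPM, on a stricter interval or on the GC correction: Nes, Krt8 and Krt18 were called at 8 h and 16 h against no LPS and at 20 h against 16 h under each of these, and no gene at 20 h against no LPS or 16 h against 8 h. With a fold threshold of 4 the called genes went from 3 to 0 in these 3 comparisons, while all called genes went from 981 to 187 at 8 h, from 971 to 178 at 16 h and from 1000 to 184 at 20 h against 16 h. With a threshold of 1.5, Lmnb1 joined at 8 h and 16 h, giving 4, and Lmnb1 and Des joined at 20 h against 16 h, giving 5, while all called genes came to 2343, 2356 and 2449. A minimum of 10 CPM left 332, 332 and 357 called genes in the same comparisons. Without a count filter Krt7 was also called lower at 16 h, on 7 against 19 reads. The count of all called genes also moved by over 1.5 times at 16 h without a count filter, from 971 to 1484. From 77 at 20 h against no LPS it went to 216 without a filter, 22 with 10 CPM, 236 and 9 with thresholds of 1.5 and 4, and 40 with the stricter interval. From 28 at 16 h against 8 h it went to 172, 0, 92, 2 and 4 in the same order. No measured gene of the 9 changed sign against no LPS under the 6 settings of scaling, prior count or GC correction. The GC correction took 5 of 45 log2 ratios outside their counting intervals. These were Lmnb2 at 20 h, from 0.21 to 0.11, and Lmna at 8, 16 and 20 h against no LPS and at 20 h against 16 h. As an alternative chosen after seeing the data, the correction took Lmnb1 over Lmnb2 relative to no LPS from 1.99 to 2.07 at 8 h. Some Vim ratios left their narrow intervals under each alternative scaling, as at 20 h from 0.11 to 0.082 with upper quartiles. In the linear trend no gene of the 10 passed adjustment under any setting, the count being 0 with each library left out in turn, which leaves 1 residual degree of freedom. Depth limits Krt7, Des and Krt19, with 7 to 83 reads a library. No paired analysis was possible because each label has 1 library and the labels carry no replicate numbers.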
